A study of Macaca mulatta with 26 samples.

Results

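ADAMTS16, a secreted metalloprotease, was at 4.89 to 8.48 FPKM (reads per kilobase of gene model, scaled to library depth) in the pineal gland of rhesus macaques at mid-day and at 0.0229 to 0.200 FPKM in every pineal library of the other 3 times. ADAMTSL1, a secreted family member without a protease domain, had higher FPKM in every pineal library of mid-day and dusk than in any of dawn and midnight. In the fit made here only dusk over dawn passed, close to the threshold. The mean of ADAMTSL1 was 10.6-fold higher in the pineal gland than in the retina. These 2 genes and 6 relatives, ADAMTS18, ADAMTS1, ADAMTS4, ADAMTS5, ADAMTS9 and ADAMTSL3, were followed through all 26 RNA-seq libraries of the study. They were taken by name from a table of 50308 genes, and all 8 were found in it. ADAMTS16 was chosen by its measured pineal FPKM, high only at mid-day, so its pineal values are a description and carry no test. ADAMTSL1 and the other 6 were listed when time-of-day results of these libraries were already known, so a call of ADAMTSL1 over time is not independent of the choice.

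The study compared transcripts over the day and night in 2 tissues of Macaca mulatta. Per the labels, 12 adult animals of 3 to 33 years, male and female, were collected over 11 years, 3 at each time, and no library is labelled with its animal, age or sex. All had been housed with 12 h of light and 12 h of dark, lights on at 0600. Pineal gland and retina were each sampled in 4 windows, dawn from 0500 until 0700, mid-day from 1100 until 1300, dusk from 1700 until 1900, and midnight from 2300 until 0100, with 3 libraries per tissue and time. Each control library was a pool of equal amounts of RNA from 16 other tissues, brain regions, pituitary, peripheral organs and gonads, with 1 pool from mid-day and 1 from midnight. Per the labels' protocols, RNA came from individual pineal glands or small tissue pieces, and no animal carried a genetic or drug treatment.

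FPKM is a level per length, so levels can be compared between genes, but only approximately. The submitters' notes name a human build, and macaque reads can be lost where the sequences differ. The library totals that the FPKM steps imply were 11.7 to 16.1 M reads in the pineal gland, 16.9 to 21.4 M in the retina and 16.2 and 23.0 M in the pools. The tissue labels held against their markers. Summed over 6 genes, the pineal list that includes AANAT and ASMT was at 858 to 1311 FPKM in the pineal gland, 487 to 722 in the retina, which shares CRX and GNGT1 with it, and 2.55 to 2.92 in the pools. The 5 photoreceptor genes summed to 62.0 to 127 FPKM in the pineal gland, 3366 to 4478 in the retina and 7.80 to 11.7 in the pools. Retina dawn 2 and retina mid-day 1 stood apart, since 44.8% and 45.7% of genes were at 0 there, while the other 10 retina libraries had 33.5% to 35.2%. XIST, made from the inactive X chromosome, was above Y-linked EIF1AY in 1, 3, 2 and 1 of the 3 pineal libraries of dawn, mid-day, dusk and midnight, and in 0, 1, 3 and 1 of the retina libraries. The counts of the tissues differ at dawn, mid-day and dusk, so the same 3 animals cannot be taken to have given both tissues at these times, although the labels give 12 animals in all. The fits treat all libraries as independent.

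ADAMTS enzymes are secreted zinc metalloproteases with thrombospondin repeats that bind and cut matrix molecules outside the cell. They are made as inactive precursors, are switched on by furin-type convertases and are held in check by tissue inhibitors of metalloproteinases, TIMP3 above all. ADAMTS1, ADAMTS4, ADAMTS5 and ADAMTS9 cut the large proteoglycans aggrecan and versican. ADAMTS16 and ADAMTS18 form a closely related pair with fewer known substrates. ADAMTSL1 and ADAMTSL3, also called punctins, keep the repeats but lack the catalytic part. The pineal gland makes melatonin at night under the control of the brain's clock, and its cells share many genes with the photoreceptors of the retina.

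ADAMTS16 had 0.0542, 0.200 and 0.0269 FPKM in the 3 pineal libraries of dawn, 6.65, 8.48 and 4.89 at mid-day, 0.0229, 0.0981 and 0.183 at dusk, and 0.0662, 0.105 and 0.0434 at midnight. All 3 mid-day libraries were high and the 9 others were near the limit of detection, with no overlap. The reads behind these values were 461, 582 and 386 at mid-day and between 2 and 14 in each of the 9 others, 60 in all. The mid-day mean was 6.67 ± 1.79 FPKM (SD, n = 3), 75.0-fold above the mean of 0.0889 over the other 9 libraries. XIST was above EIF1AY in all 3 mid-day libraries, and in the 4 other pineal libraries with XIST above EIF1AY, ADAMTS16 was at 0.0229 to 0.200 FPKM. Over the 12 pineal libraries, its correlation with the summed level of each of 9 marker lists, 8 of cell types and 1 of immediate early genes, lay between -0.41 and 0.17 (Pearson r of log2 values).

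In the retina ADAMTS16 was low at each time. It had 0.123, 0.0479 and 0.0519 FPKM at dawn, 0.190, 0.452 and 0.145 at mid-day, 0.331, 1.62 and 0.336 at dusk, and 0.435, 0.135 and 0.408 at midnight. The 3 dawn libraries were below the 9 others, and dusk 2 stood above the rest with 175 reads. With only 1 library at 1 FPKM or more the gene fell short of the filter for the retina fit, FPKM of at least 1 in at least 3 libraries, so its retina profile over time was not tested. The control pools held 1.13 FPKM at mid-day and 0.630 at midnight, between the pineal mid-day level and that of the other pineal times. The pineal mid-day mean was 18.8-fold above the retina mean of 0.356 and 7.57-fold above the pool mean of 0.881. The gene entered the fit over all libraries only through its 3 pineal mid-day libraries, which chose it, so the retina is set against the pools by these values alone, with no test.

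**Figure D1:**
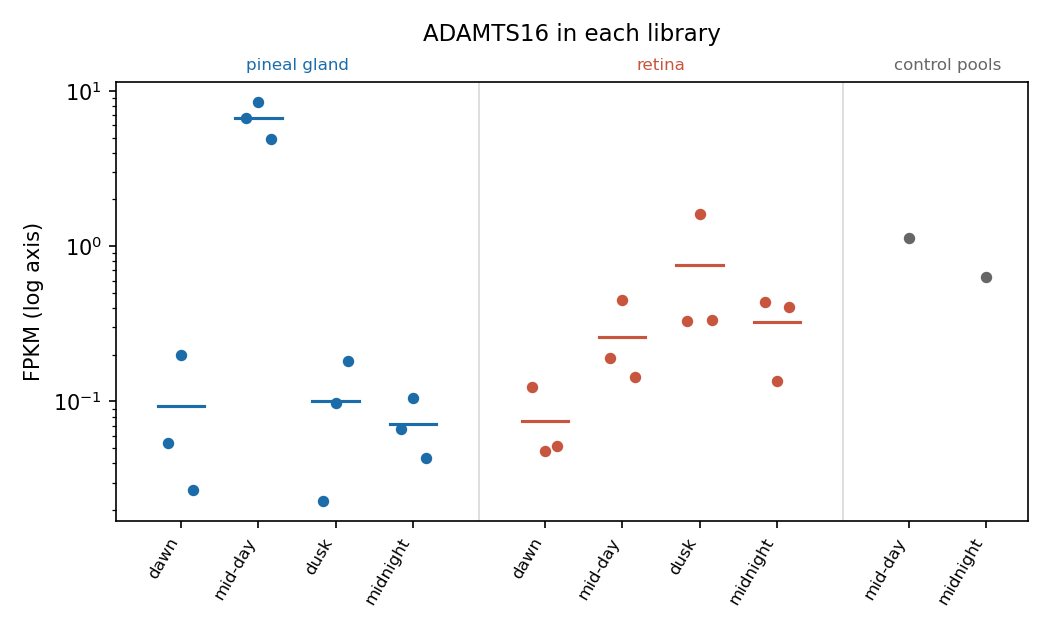
ADAMTS16 in each of the 26 libraries, in FPKM on a log axis, by tissue and time; points are libraries and bars are means of 3. The 3 pineal mid-day libraries lie at 4.89 to 8.48 FPKM, the 9 other pineal libraries at 0.0229 to 0.200, the retina libraries at 0.0479 to 1.62 and the pools at 0.630 and 1.13.

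ADAMTS18, the closest relative of ADAMTS16 and a gene of human inherited eye disease, was not highest at mid-day. It had 4.68, 3.05 and 1.60 FPKM in the pineal libraries of dawn, 1.08, 0.443 and 2.84 at mid-day, 3.46, 0.301 and 3.78 at dusk, and 0.476, 1.28 and 0.186 at midnight. Every dawn library was above every midnight library, but at dusk the libraries spread from 0.301 to 3.78 FPKM, and the limma F test over the 4 times did not pass (adjusted p = 0.499). In the authors' deposited table, which rests on DESeq2 and counts, ADAMTS18 was higher at dawn than at midnight (log2 fold change 1.17, adjusted p = 0.0243), a comparison in which 1.41% of genes with an adjusted p passed. In the retina it was steadier, at 2.79 to 5.46 FPKM, and the pools held 0.811 and 0.870. It was lower in the pineal gland than in the retina (log2 difference -1.16 ± 0.26 SE, limma adjusted p = 4.05e-04) and higher in the retina than in the pools (1.70 ± 0.49 SE, limma adjusted p = 0.00525), though the ranges of pineal gland and retina overlapped at 2.79 to 4.68 FPKM. Without the mid-day pool the second call just missed the threshold (1.67, limma adjusted p = 0.0506).

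ADAMTS1, a proteoglycan-cutting enzyme induced by injury and inflammation in many tissues, was the most abundant member on average in both tissues. It had 5.95, 7.96 and 4.26 FPKM in the pineal libraries of dawn, 4.55, 4.17 and 12 at mid-day, 5.26, 6.74 and 7.52 at dusk, and 18, 6.88 and 6.68 at midnight. Single libraries set the spread, mid-day 3 and midnight 1, and the times overlapped. In the retina the dawn mean was 6.12 ± 2.83 FPKM, the mid-day mean 8.46 ± 3.27, the dusk mean 5.42 ± 0.98 and the midnight mean 9.42 ± 3.52 (SD, n = 3 each). It averaged 7.49 FPKM in the pineal gland, 7.35 in the retina and 7.15 in the pools, and none of the 3 differences passed the test (limma adjusted p = 0.980 for pineal gland against retina, 0.999 for pineal gland and 0.923 for retina against the pools). In the authors' deposited table, ADAMTS1 was higher in the retina at midnight than at dusk (log2 fold change 0.61, adjusted p = 0.0365), a comparison in which 2.54% of genes with an adjusted p passed. In the limma fit of the retina it did not pass any pair of times, with a lowest adjusted p of 0.558.

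ADAMTS4, an aggrecan-cutting enzyme of cartilage that is also made in brain, was the scarcest of the 4 proteoglycan-cutting members in the pineal gland and was mainly a transcript of the pools. Its pineal values were 0.176, 1.99 and 0.424 FPKM at dawn, 0.107, 0.675 and 0.352 at mid-day, 0.508, 0.586 and 0.508 at dusk, and 0.343, 0.251 and 0.214 at midnight. The retina libraries lay between 0.0536 and 0.361 FPKM, and the pools held 4.08 and 6.18. Both pools were above every pineal and retina library, and pineal dawn 2 stood above the other 11 pineal libraries. That library also had the highest sum of 3 oligodendrocyte markers, MBP, MOG and MAG, at 126 FPKM, while the others had 4.29 to 47.2. Over the 12 pineal libraries ADAMTS4 went with this sum (Pearson r = 0.91, Spearman rho = 0.92). It also went with the astrocyte and Muller glia sum (0.62 and 0.73) and the pigment epithelium sum (0.55 and 0.42). In the retina its values with the oligodendrocyte sum were 0.34 and 0.10. The oligodendrocyte sum was 0.453 to 1.31 FPKM in the retina and 195 and 266 in the pools. The part of any of these cells in the levels of ADAMTS4 was not tested. The log2 differences were 0.48 for pineal gland against retina, -2.56 for pineal gland against pools and -3.04 for retina against pools. ADAMTS4 passed the filter of the fit over all libraries only through the 2 pools and pineal dawn 2, where it was high, so these differences are given with no test, and it was not tested within either tissue.

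ADAMTS5, the main aggrecan-cutting enzyme of mouse cartilage, had pineal levels that overlapped between all times. Its pineal dawn mean was 1.85 ± 0.78 FPKM, with 1.94 ± 0.77 for mid-day, 2.01 ± 0.37 for dusk and 2.57 ± 0.53 for midnight (SD, n = 3 each). Its retina means were 4.64 ± 0.97, 4.54 ± 0.45, 3.37 ± 0.51 and 4.37 ± 0.74 FPKM at the same times, and the pools held 4.66 and 4.41. Pineal libraries reached 3.13 FPKM and retina libraries came down to 2.83, so the tissues overlapped only slightly. ADAMTS5 was lower in the pineal gland than in the retina (log2 difference -0.89 ± 0.12 SE, limma adjusted p = 1.48e-06) and than in the pools (-1.0 ± 0.23 SE, limma adjusted p = 0.00125). Over the 12 pineal libraries its levels went with those of ADAMTS1 (Pearson r = 0.70, Spearman rho = 0.55).

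ADAMTS9, a versican-cutting enzyme found around vessels and in many developing organs, separated the tissues cleanly. It had 1.53, 1.33 and 1.06 FPKM in the pineal libraries of dawn, 1.28, 1.57 and 1.77 at mid-day, 1.79, 1.68 and 1.75 at dusk, and 2.54, 2.05 and 1.65 at midnight. The retina libraries lay between 0.0265 and 0.182 FPKM, all below every pineal library, and the pools held 2.84 and 2.66, above every pineal library. Dawn was below dusk and midnight with no overlap, but the F test over times did not pass (limma adjusted p = 0.444). ADAMTS9 entered the fit over all libraries only through pineal libraries and pools, so its p-value against the retina is a description. The pineal mean was 13.3-fold the retina mean. On the log2(FPKM + 0.5) scale, which understates the change of low genes, the difference was 1.78 ± 0.09 SE (limma adjusted p = 1.72e-13). The gland was lower than the pools (-0.60 ± 0.16 SE, limma adjusted p = 0.00398). Without the mid-day pool the second difference missed the threshold (-0.56, limma adjusted p = 0.0591). The antisense gene ADAMTS9-AS2 had a like pattern, at 2.20 to 7.93 FPKM in the pineal gland, 0.204 to 0.428 in the retina and 4.54 and 4.52 in the pools. The strand setting of the counts is not given in the sources used here, so reads of ADAMTS9 and of its antisense partners cannot be told apart where they overlap. Fibroblast and mural cell markers, 7 genes that include DCN, LUM and PDGFRB, also lay apart, at 81.7 to 199 FPKM summed in the pineal gland, 24.0 to 42.5 in the retina and 170 to 192 in the pools. Over the 12 pineal libraries ADAMTS9 went with this sum (Pearson r = 0.76, Spearman rho = 0.79), and also with the endothelial sum (0.62 and 0.45) and the choroid plexus sum (0.62 and 0.60). The endothelial sum was 15.8 to 37.3 FPKM in the pineal gland and 15.2 to 34.2 in the retina, and the choroid plexus sum 285 to 1421 in the pineal gland and 13.1 to 96.6 in the retina. The part of these cells in the tissue difference was not tested. In bulk tissue fewer cells of a type and less RNA per cell cannot be told apart.

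ADAMTSL1 had 1.47, 1.85 and 1.37 FPKM in the pineal libraries of dawn, 4.94, 4.95 and 4.43 at mid-day, 3.22, 9.66 and 6.94 at dusk, and 2.07, 2.02 and 2.10 at midnight. Every mid-day and dusk library was above every dawn and midnight library, every midnight library was above every dawn library, and mid-day and dusk overlapped. The dawn mean was 1.56 ± 0.25 FPKM, the mid-day mean 4.77 ± 0.30, the dusk mean 6.61 ± 3.23 and the midnight mean 2.06 ± 0.04 (SD, n = 3 each). Dusk was higher than dawn (log2 difference 1.67 ± 0.29 SE, limma adjusted p = 0.0408), the only pair of times that passed for this gene. Of the 19110 genes tested 0.586% passed that pair, 0.272% higher and 0.314% lower at dusk. Mid-day against dawn gave 1.36 ± 0.29 (limma adjusted p = 0.148), midnight against dusk -1.35 ± 0.29 (0.113), midnight against mid-day -1.04 ± 0.29 (0.278), dusk against mid-day 0.32 ± 0.29 (0.999) and dawn against midnight -0.32 ± 0.29 (0.745). The F test over the 4 times did not pass (limma adjusted p = 0.0810), and 0.105% of genes passed it.

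The call of dusk over dawn was close to the threshold. Its difference stayed between 1.36 and 2.08 when each pineal library was left out in turn, and the adjusted p between 0.00998 and 0.136. The call held without dusk 1, mid-day 2 or mid-day 3 and was lost without each of the other 9, the library dusk 2 at 9.66 FPKM among them (1.36, limma adjusted p = 0.136). Without dusk 1, the lowest dusk library, mid-day over dawn and midnight under dusk passed as well, as did the F test (limma adjusted p = 0.00890). With XIST above EIF1AY as a covariate the difference was also 1.67 and the adjusted p 0.0799. In the authors' deposited tables, ADAMTSL1 was higher at mid-day than at dawn (log2 fold change 1.48, adjusted p = 7.42e-15), at dusk than at dawn (1.61, adjusted p = 6.27e-06) and at mid-day than at midnight (1.11, adjusted p = 1.73e-11). The authors' deposited table also had it lower at midnight than at dusk (-1.23, adjusted p = 1.75e-04). Of genes with an adjusted p in the authors' deposited tables, 1.53% passed for mid-day against dawn, 6.15% for dusk against dawn, 1.01% for mid-day against midnight and 5.04% for midnight against dusk.

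**Figure D2:**
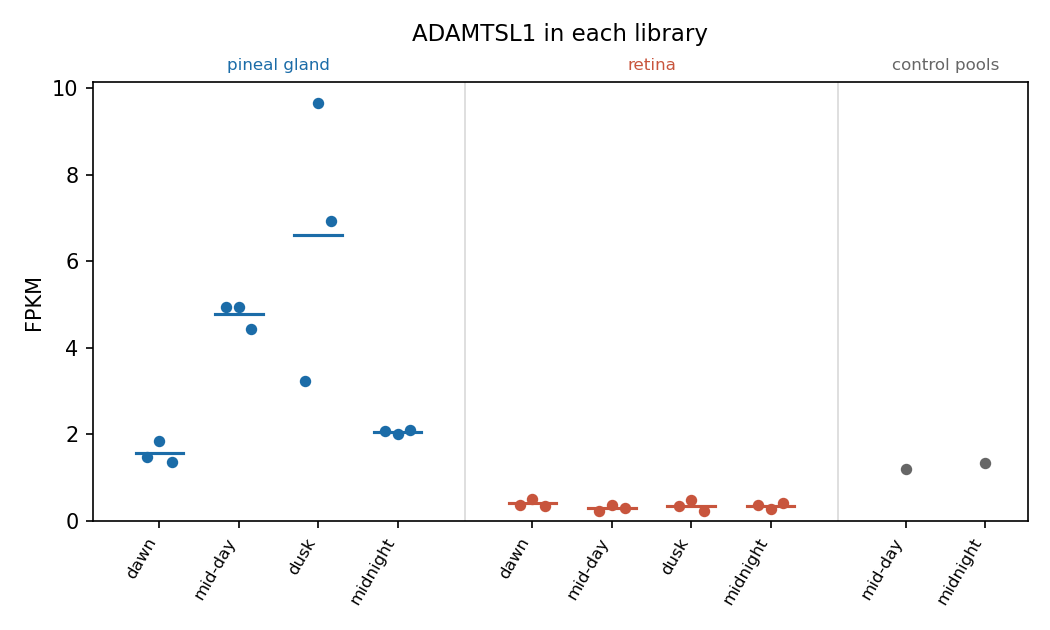
ADAMTSL1 in each of the 26 libraries, in FPKM, by tissue and time; points are libraries and bars are means of 3. Pineal libraries of mid-day and dusk lie at 3.22 to 9.66 FPKM and those of dawn and midnight at 1.37 to 2.10, and the retina libraries lie at 0.234 to 0.504.

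In the retina ADAMTSL1 was low and flat. It had 0.377, 0.504 and 0.336 FPKM at dawn, 0.237, 0.360 and 0.308 at mid-day, 0.339, 0.490 and 0.234 at dusk, and 0.370, 0.277 and 0.412 at midnight. All times overlapped, and with no library at 1 FPKM the gene was not tested within the retina. ADAMTSL1 entered the fit over all libraries only through pineal libraries and pools, where it was high. Its p-values for differences from the retina are therefore a description and no independent support. Averaged over the times, the pineal gland held 3.75 FPKM and the retina 0.354, a log2 difference of 2.11 ± 0.12 SE (limma adjusted p = 3.25e-12). The pools held 1.20 and 1.34 FPKM, below every pineal and above every retina library, with the pineal gland higher (1.05 ± 0.23 SE, limma adjusted p = 7.52e-04) and the retina lower (-1.06 ± 0.23 SE, limma adjusted p = 6.27e-04) than the pools. The 4-time profile differed between pineal gland and retina (interaction F test, limma adjusted p = 0.0429), where 0.305% of the 25213 genes passed. This p-value is a description for the same reason. ADAMTS4 and ADAMTS16 aside, ADAMTSL1 was the only 1 of 6 members with this call. That call was lost in 6 of 9 other settings and in 23 of 26 fits without 1 library, with adjusted p up to 0.291. Over the 12 pineal libraries its correlation with the same 9 marker sums lay between -0.37 and 0.26 (Pearson r).

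ADAMTSL3, the other punctin, was lowest at dawn in the pineal gland. It had 1.44, 0.782 and 0.522 FPKM at dawn, 6.22, 2.76 and 2.68 at mid-day, 5.53, 4.76 and 1.12 at dusk, and 5.33, 1.95 and 3.60 at midnight. The dawn libraries were below those of mid-day and midnight with no overlap, while dusk 3 fell inside the dawn range. The largest difference, mid-day over dawn, was 1.59 ± 0.53 SE and did not pass (limma adjusted p = 0.244), nor did the F test (limma adjusted p = 0.308). In the authors' deposited tables, ADAMTSL3 was higher at mid-day than at dawn (log2 fold change 1.41, adjusted p = 0.00490), at dusk than at dawn (1.22, adjusted p = 0.0160), and lower at dawn than at midnight (-1.28, adjusted p = 0.00687). The fibroblast and mural marker sum was 147, 87.8 and 81.7 FPKM in the dawn libraries and 97.7 to 199 in the others, and over the 12 pineal libraries ADAMTSL3 went with it (Pearson r = 0.71, Spearman rho = 0.65) and with the endothelial sum (0.66 and 0.72). The part of these cells was not tested. Retina libraries lay at 0.749 to 1.59 FPKM and the pools at 3.14 and 3.15. ADAMTSL3 was higher in the pineal gland than in the retina (log2 difference 0.94 ± 0.21 SE, limma adjusted p = 3.07e-04) and lower in the retina than in the pools (-1.22 ± 0.39 SE, limma adjusted p = 0.00983). With either pool left out the second comparison had an adjusted p of 0.0680 or 0.0690.

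**Figure D3:**
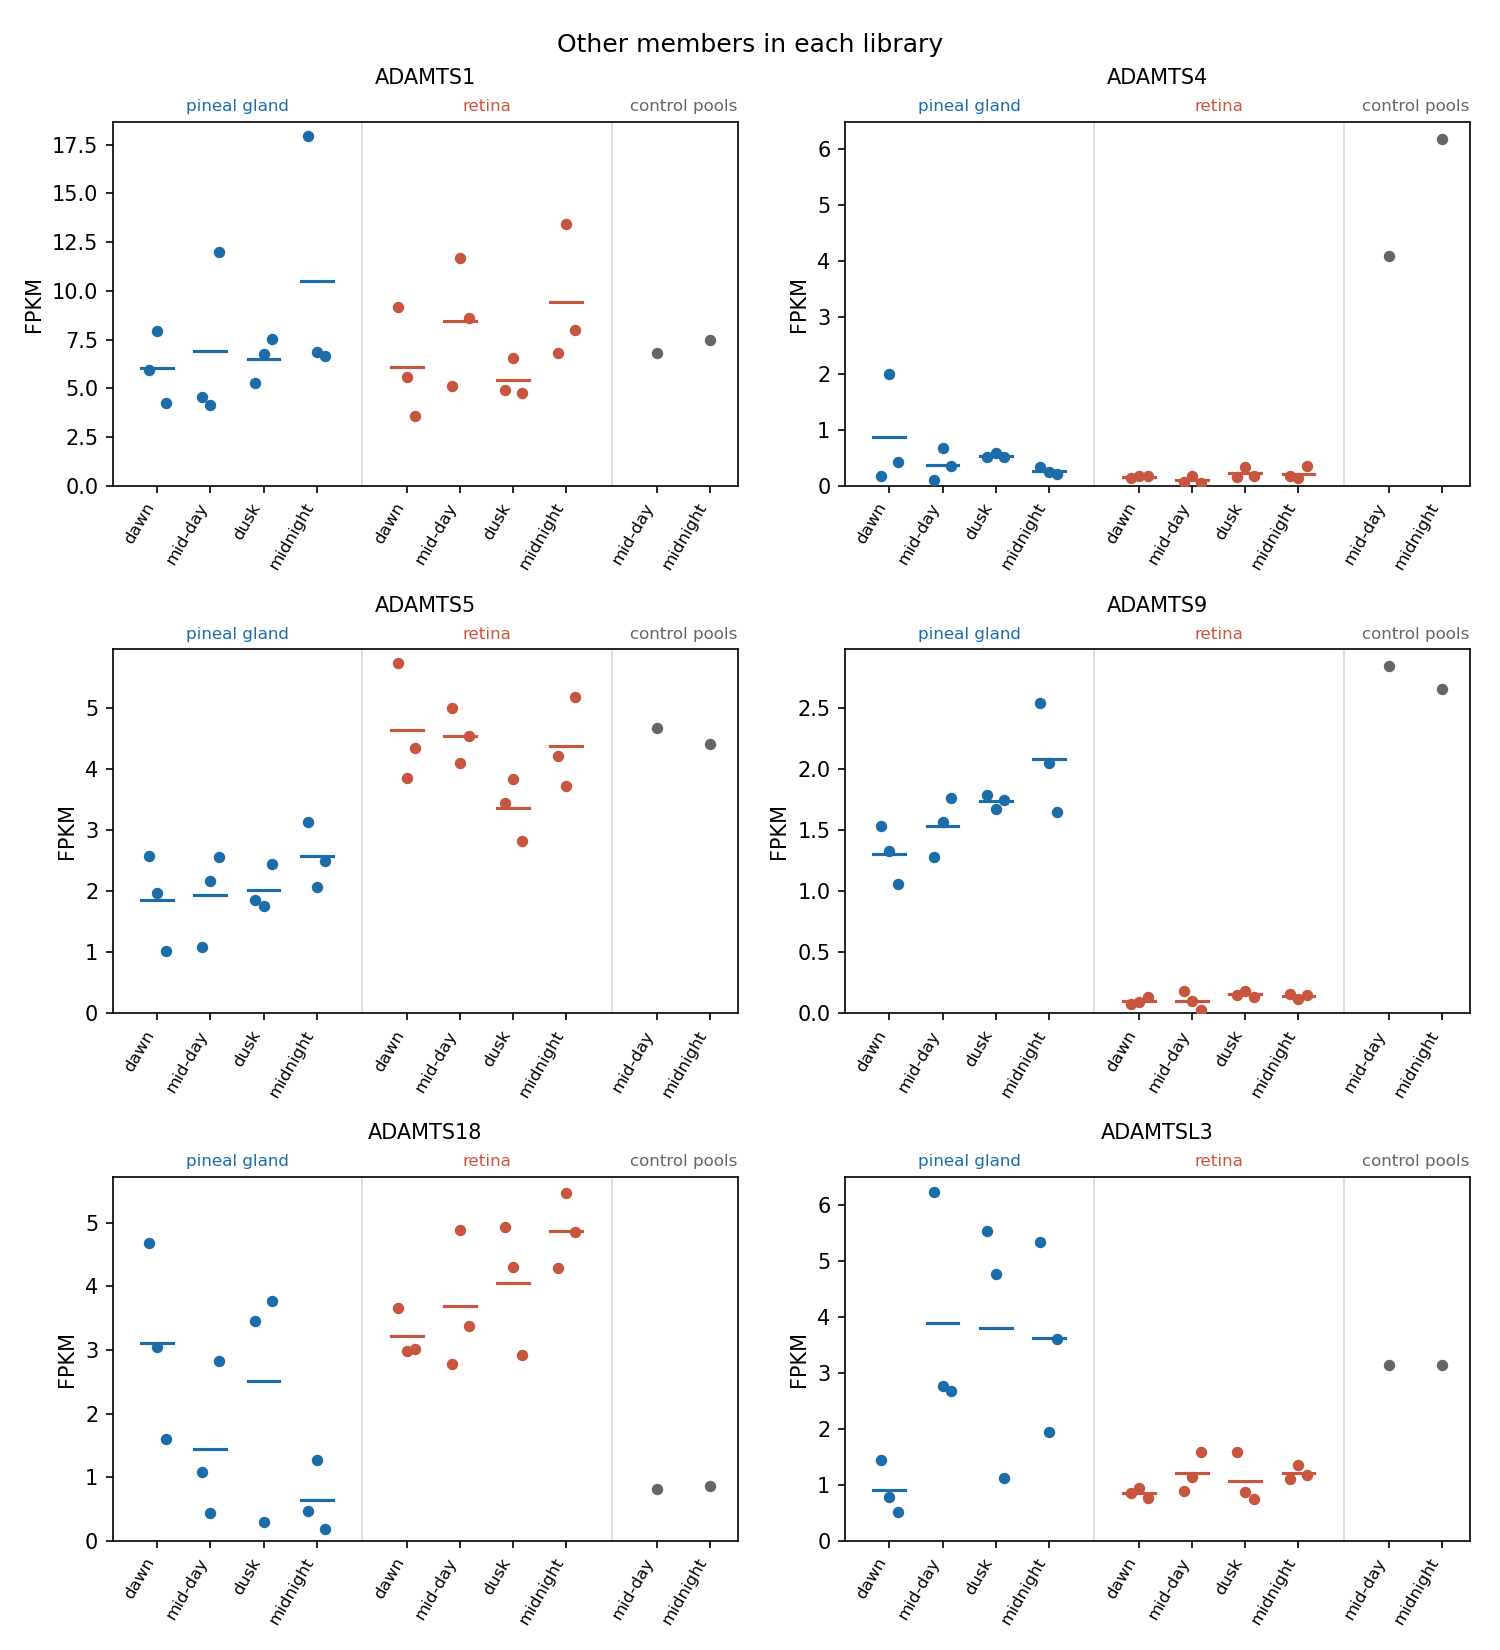
FPKM of ADAMTS1, ADAMTS4, ADAMTS5, ADAMTS9, ADAMTS18 and ADAMTSL3 in each library, by tissue and time; points are libraries and bars are means of 3. ADAMTS9 lies at 1.06 to 2.54 FPKM in the pineal gland and 0.0265 to 0.182 in the retina, ADAMTS4 is highest in the pools at 4.08 and 6.18, and ADAMTS18 spreads from 0.186 to 4.68 among pineal libraries.

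Within the pineal gland 6 members besides ADAMTS16 passed the filter, and ADAMTS4 did not. The limma F test over times called 0 of the 6, and at an unadjusted p under 0.05 it took in 2, ADAMTSL1 and ADAMTSL3, beside 14.5% of all genes. Over the 6 pairs of times limma made 1 member call, ADAMTSL1 at dusk over dawn. Among all genes tested 0.0419% passed midnight against mid-day, 0.0314% mid-day against dawn, 0.0209% dusk against mid-day, 0.0576% midnight against dusk and 0% dawn against midnight, where 9.52% had an unadjusted p under 0.05. Within the retina ADAMTS1, ADAMTS5, ADAMTS18 and ADAMTSL3 passed the filter, and 0 of the 4 passed the F test or any pair, where 0% of the 21890 genes passed the F test and 10.2% had an unadjusted p under 0.05. In the retina 0.0274% of genes passed midnight against dusk, and 0% passed each other pair. At an unadjusted p under 0.05 there were 11.2% of genes for midnight against mid-day, 7.8% for mid-day against dawn, 3.65% for dusk against mid-day, 4.49% for dawn against midnight and 10.7% for dusk against dawn. The lowest adjusted p of a member in the retina was for ADAMTS5, at dusk against dawn (log2 difference -0.40 ± 0.17 SE, limma adjusted p = 0.446).

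Besides ADAMTS4 and ADAMTS16, 3 of 6 members were higher in the pineal gland than in the retina, ADAMTSL1, ADAMTS9 and ADAMTSL3, and 2 were lower, ADAMTS5 and ADAMTS18. So many genes differ between these tissues, 82.4% of the 25213 tested, 34.9% higher and 47.6% lower in the pineal gland, that the number called is not particular to the members. ADAMTSL1 and ADAMTS9 passed the filter only through pineal libraries and pools, with 0 retina libraries at 1 FPKM. The calls of these genes between the retina and the other tissues are therefore a description. The median log2 difference over all genes was -0.17. Against the pools the pineal gland was higher for ADAMTSL1 and lower for ADAMTS5 and ADAMTS9, 3 of 6 called, with 46.3% of all genes called, 21.9% higher and 24.4% lower. The retina was higher for ADAMTS18 and lower for ADAMTS9, ADAMTSL1 and ADAMTSL3, 4 of 6 called, with 62.6% of all genes called, 35.4% higher and 27.2% lower. The comparisons with the pools share the same 2 libraries, 1 from each time. Without the mid-day pool 2 members were called in each comparison.

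**Figure D4:**
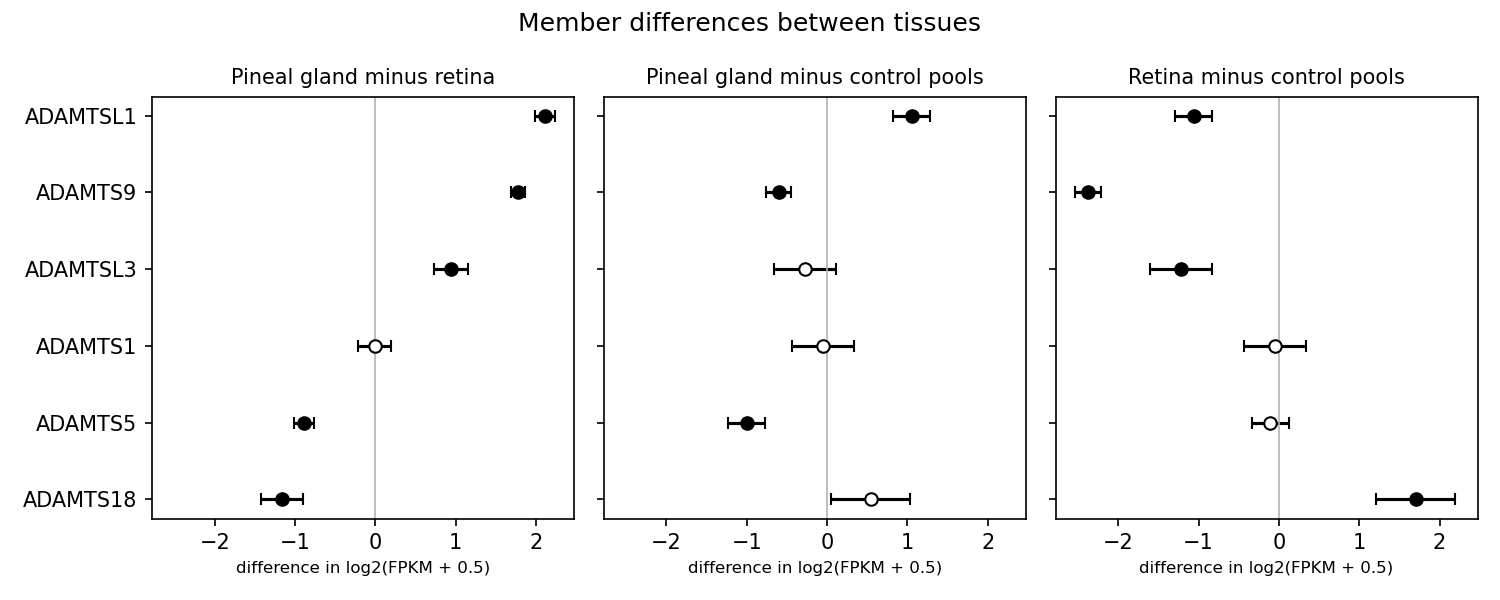
Differences in log2(FPKM + 0.5) of the members between pineal gland and retina, pineal gland and pools, and retina and pools, from the limma fit over all 26 libraries; points are estimates, bars their SE, and filled points have an adjusted p under 0.05. ADAMTS4 and ADAMTS16 are left out, since they entered the fit only through libraries where they were high. ADAMTSL1 and ADAMTS9 entered it only through pineal libraries and pools, so their points against the retina are a description. On this scale ADAMTSL1 has the largest positive difference between pineal gland and retina, 2.11, and ADAMTS18 the most negative, -1.16. By the ratio of mean FPKM, ADAMTS9 differs more than ADAMTSL1.

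At mid-day the pineal levels ran from ADAMTS1 at 6.90 ± 4.41 FPKM through ADAMTS16 at 6.67 ± 1.79, ADAMTSL1 at 4.77 ± 0.30, ADAMTSL3 at 3.89 ± 2.02, ADAMTS5 at 1.94 ± 0.77, ADAMTS9 at 1.54 ± 0.24 and ADAMTS18 at 1.45 ± 1.24 to ADAMTS4 at 0.378 ± 0.285 (SD, n = 3 each). Neighbours in that order overlapped, except that every ADAMTSL3 library was above every ADAMTS5 library, and at the other 3 times ADAMTS16 was the lowest of the 8 by its mean. Among the members, ADAMTS1, ADAMTS5 and ADAMTS9 varied together over the 12 pineal libraries (Pearson r of log2 values 0.70 to 0.77), although r fell to between 0.47 and 0.58 when the 2 libraries farthest from the median were left out. ADAMTS16 and ADAMTSL1 had r = 0.42, and ADAMTS18 and ADAMTSL3 the lowest value, -0.49. Libraries of 1 time share their hour, so these values are a description of the 12 libraries.

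The genes most like ADAMTS16 over the 12 pineal libraries, by Pearson r of log2 values, were DMWD (0.94), EARS2 (0.89), the mitochondrial glycine tRNA MT-TG (0.87), METTL18 (0.84) and ZNF354C (0.83). The ranking used the pineal values by which ADAMTS16 was chosen and is a description. MT-TG averaged 0, 2.27, 0.319 and 0 FPKM at dawn, mid-day, dusk and midnight. The others changed far less relative to their level. DMWD averaged 13.1, 17.9, 12.9 and 12.0 FPKM at dawn, mid-day, dusk and midnight, and EARS2, the mitochondrial glutamate tRNA ligase, 6.54, 9.96, 7.0 and 6.44 FPKM. The genes most like ADAMTSL1 were NREP (r = 0.95), RBM6, ARL6, MSH3 and MINA (0.92 each). NREP averaged 8.83, 13.2, 14.4 and 10.1 FPKM at dawn, mid-day, dusk and midnight, and ARL6, a small GTPase of the cilium, 15.6, 19.9, 22.6 and 17.2 FPKM. ADAMTSL1 itself was 4.23-fold higher at dusk than at dawn by its means.

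Of 12 substrates chosen with earlier results known, 11 passed the filter, 10 were higher in the pineal gland and COL2A1, the collagen of cartilage and vitreous, was lower, with a median log2 difference of 2.84. Of all genes tested 82.4% were called in this comparison, 34.9% higher and 47.6% lower. Within the pineal gland alone 11 substrates passed the filter, and within the retina alone 6. A substrate low in the retina could enter the fit only if it was high in the pineal gland or the pools. The substrate count and median are therefore a description. The same holds for the differences from the retina of substrates that were low there. COL3A1, a fibrillar collagen, averaged 20.3 FPKM in the pineal gland and 0.109 in the retina (log2 difference 5.02 ± 0.13 SE, given with no test). COL1A2 differed by 4.41, and the proteoglycan versican, VCAN, by 4.08, at 13.3 FPKM in the pineal gland and 0.317 in the retina. Fibronectin, FN1, which ADAMTS16 can cut, averaged 25.6 FPKM in the pineal gland and 1.80 in the retina (3.47 ± 0.14 SE, limma adjusted p = 1.55e-14). Against the pools 0 substrates were higher and 3 were lower in the pineal gland, while 1 was higher and 10 were lower in the retina, beside 46.3% of all genes called for the pineal gland and 62.6% for the retina. COL3A1, among the 3 lower in the pineal gland, lost its call in 5 of 8 other settings and 18 of 26 fits without 1 library. Fibroblast and mural markers ran the same way, as given with ADAMTS9, and their part in this was not tested. Aggrecan, ACAN, failed the filter, at 0.152 FPKM in the pineal gland, 0.0435 in the retina and 0.188 in the pools.

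Of the 10 genes for inhibitors, processing and uptake, 7 were higher and 1, POFUT2, was lower in the pineal gland than in the retina, with a median log2 difference of 1.15. That share is near the 82.4% of all genes called. TIMP1, a metalloproteinase inhibitor, averaged 66.5 FPKM in the pineal gland, 2.98 in the retina and 17.0 in the pools (4.28 ± 0.14 SE for pineal gland against retina, limma adjusted p = 3.28e-16). TIMP3, the main inhibitor of ADAMTS4 and ADAMTS5, averaged 62.2 FPKM in the pineal gland and 26 in the retina (1.30 ± 0.17 SE, limma adjusted p = 6.98e-07). B3GALTL, which adds glucose to the fucose on thrombospondin repeats, averaged 34.3 FPKM in the pineal gland, 10.6 in the retina and 10.7 in the pools, a difference of 1.64 ± 0.08 SE from the retina (limma adjusted p = 2.24e-13) and of 1.62 ± 0.15 SE from the pools (limma adjusted p = 2.92e-08). POFUT2, which adds the fucose, differed by -0.30 ± 0.10 SE from the retina (limma adjusted p = 0.00709). LRP1, the receptor that clears ADAMTS4 and ADAMTS5, averaged 23.6 FPKM in the pineal gland and 7.53 in the retina (1.57 ± 0.10 SE, limma adjusted p = 1.17e-11).

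Of 11 genes for link proteins, hyaluronan and microfibrils, 8 passed the filter, 4 were higher and 3 lower in the pineal gland than in the retina, with a median log2 difference of 0.38. LTBP1, a microfibril-bound TGF-beta carrier, differed by 3.09 ± 0.12 SE and the hyaluronan synthase HAS2 by 1.79 ± 0.16 SE. The link proteins went both ways, HAPLN2 of myelinated tissue by 1.12 ± 0.35 and HAPLN3 by -1.62 ± 0.15 (limma adjusted p at most 0.00663 for these 4 genes). Of 18 further family genes, 13 passed the filter, 6 were higher and 3 lower in the pineal gland, with a median log2 difference of 0.16. The counts of both lists stand beside 82.4% of all genes called in this comparison, 34.9% higher and 47.6% lower. A gene low in 1 tissue could enter the fit only if it was high elsewhere, so these counts are a description. ADAMTS10, which binds fibrillin microfibrils, differed by 1.68 ± 0.11 and THSD4, an ADAMTS-like gene, by 1.34 ± 0.22, while ADAMTS19 differed by -1.83 ± 0.13 and PAPLN by -1.38 ± 0.15 (limma adjusted p at most 1.18e-05). Against the pools, the pineal gland was higher for 1 and lower for 7 of the further family genes, higher for 2 and lower for 4 of the inhibitor and processing genes, and higher for 1 and lower for 3 of the link and microfibril genes. These shares stand beside 46.3% of all genes. Among them the calls of ADAMTS10 and HAS2, both higher in the pineal gland, were lost in 20 and 15 of 26 fits without 1 library, with adjusted p up to 0.361 and 0.186 in the limma fits. The retina was higher than the pools for 1 and lower for 6 of the further family genes, lower for 6 of the inhibitor and processing genes, and higher for 2 and lower for 5 of the link and microfibril genes, beside 62.6% of all genes called. No gene of these 4 lists passed the F test over times within the pineal gland or the retina. In the pineal gland 9 of the further family genes, 11 substrates, 10 inhibitor and processing genes and 6 link and microfibril genes were tested for time, and in the retina 10, 6, 10 and 5. FURIN, the convertase that activates ADAMTS precursors, was the only 1 whose 4-time profile differed between the tissues (interaction F test, limma adjusted p = 0.0384), where 0.305% of all genes passed. That call was lost with no filter, voom, no trend and a replicate block (limma adjusted p 0.0587, 0.0587, 0.0707 and 0.187) and in 19 of 26 fits without 1 library.

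**Figure D5:**
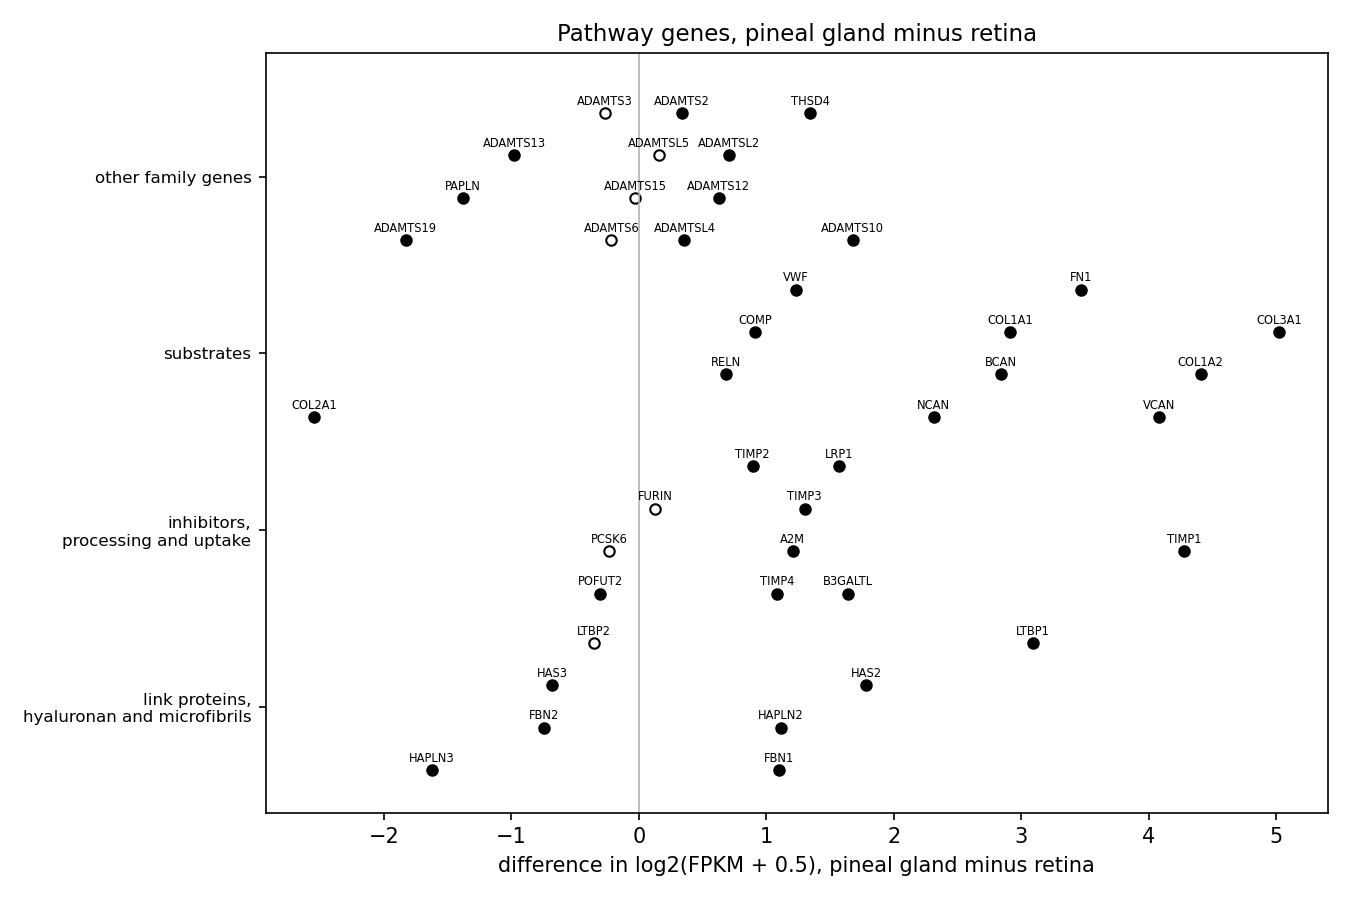
Differences in log2(FPKM + 0.5) between pineal gland and retina for the tested genes of 4 lists; each point is a gene, and filled points have a limma adjusted p under 0.05. All substrates but COL2A1 lie to the right of 0, with COL3A1 at 5.02, and the inhibitor TIMP1 lies at 4.28. Points of genes that were low in the retina are a description.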

How the data were processed

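RNA-seq of 26 macaque libraries was analysed from the deposited tables. The authors' FPKM values, per the file headers, cover 50308 genes; the submitters' processing notes name STAR 2.3.0e, Subread, featureCounts, DESeq2 and the human build hg19. Reads of macaque aligned to a human build can be lost where the sequences differ, so levels between genes are approximate. The annotation and the strand setting are not given in the sources used here. The authors' deposited comparison tables hold a log2 fold change and p-values for each pair of times. The deposited tables of pineal gland and of retina against control held the same values in all 50309 rows and were not used.

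From the FPKM, log2(FPKM + 0.5) was fitted with limma 3.58.1 in R 4.3.3, with a trend in the prior, for genes with FPKM of at least 1 in at least 3 fitted libraries. Each tissue was fitted over its 12 libraries (F test and 6 pairs of times), and 1 fit over all 26 libraries, with 8 tissue and time groups and the 2 pools as a group, gave the tissue differences and the interaction. Differences are on this log2 scale, which understates the change of low genes. P-values are two-sided, adjusted by Benjamini-Hochberg over all genes tested, with a threshold of 0.05. The code was tested on simulated data.

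FPKM steps gave whole reads for 42804 of 42804 genes above 0 (tolerance 0.0001), of which 2117 were above 0 in 1 library only and fit any step. Libraries of a time are labelled as 3 animals each. Members and gene lists were chosen with earlier results of these data known. Named were all 8 members, the 5 genes most like ADAMTS16 and ADAMTSL1 in the pineal gland without clone or numbered names, and per list up to 4 called genes with the largest difference between pineal gland and retina and any gene called over times. COL2A1, POFUT2, ACAN and FURIN were named after their values were seen. Alternatives were other pseudocounts (0.1 and 1), no filter, median-of-ratios scaling, limma voom on the recovered reads, XIST above EIF1AY as a covariate, a replicate block, no trend, mid-day and midnight only against the pools, and libraries left out. The sum of 3 oligodendrocyte markers was added after values were seen, and 1 marker gene is not reported here.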

Additional observations from a re-analysis of the deposited data

Results flagged for a closer look

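In 2 genes the profile over the 4 times differed between the tissues by a test of that difference, the interaction F test of the limma fit. For ADAMTSL1 (adjusted p = 0.0429) the pineal means were 1.56, 4.77, 6.61 and 2.06 FPKM at dawn, mid-day, dusk and midnight, and the retina means 0.406, 0.302, 0.354 and 0.353. ADAMTSL1 entered the fit only through pineal libraries and pools, with 0 retina libraries at 1 FPKM. It was also listed when time-of-day results were already known, so its p-value here is a description. For FURIN (adjusted p = 0.0384) the pineal means were 23.0, 12.3, 11.5 and 21.8 FPKM at those times, and the retina means 13.0, 15.8, 15 and 15.2. The pineal FURIN libraries lay at 17.0 to 31.8 FPKM at dawn and midnight and at 10.3 to 13.0 at mid-day and dusk. Within the pineal gland FURIN passed neither the F test nor any pair of times, and it was named after its values were seen. ADAMTSL1 values were lower at dawn and midnight than at mid-day and dusk, and only dusk over dawn passed within the gland. Both interaction calls were close to the threshold: ADAMTSL1 was called in 3 of 9 other settings and in 3 of 26 fits without 1 library, and FURIN in 4 of 9 and 7 of 26.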

How the results depend on the processing

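Of 12 called member differences between pineal gland, retina and pools, ADAMTS4 and ADAMTS16 aside, none changed direction in 413 values under the alternatives, 409 stayed past the threshold and 4 did not. All 4 concern the pools, which number 2: with 1 left out the other is assumed to vary like the remaining groups. The 12 include the differences of ADAMTSL1 and ADAMTS9 from the retina, which are a description. Fits without 1 library share most of their libraries. For pineal gland against retina, members called, with ADAMTS4 counted, ranged from 5 to 6 when each library was left out. The reported fit called 82.4% of all genes there. ADAMTS4 passed the filter only through the 2 pools and pineal dawn 2, so without 1 of these it left the fit. The range is therefore a description. Of 1378 values for 40 called differences of other named genes, 64 were no longer past the threshold and 0 changed direction. The calls over time were less steady. Member calls over pineal pairs of times, 1 in the reported fit, were 0 with no filter, with the XIST covariate and with no trend, and 0 to 3 with a library left out, 3 without dusk 1. For the pineal F test the count was 0 to 1, with ADAMTSL1 passing without dusk 1 or mid-day 3. Members whose profile differed between tissues, 1 in the reported fit, numbered 0 with pseudocount 0.1, with no filter, with limma voom, with the XIST covariate and without retina dawn 2 and mid-day 1 together, and 0 to 1 with a library left out. ADAMTSL1 there had limma adjusted p of 0.0624, 0.0696, 0.291, 0.0885 and 0.0847 in those settings. FURIN had 0.0587 with no filter, 0.0587 with limma voom, 0.0707 with no trend and 0.0688 without both retina libraries.

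Directions turned only for differences that had not passed. ADAMTS1 in retina against pools was 0.026 rescaled by the median of ratios, 0.031 without both retina libraries, 0.24 against the pools at mid-day and midnight only, and -0.13 to 0.026 with a library left out. In pineal gland against pools it was 0.089 at those times only and -0.17 to 0.011 with a library left out, and in pineal gland against retina 0.0019 with limma voom and -0.12 to 0.074 with a library left out. ADAMTSL3 in pineal gland against pools was 0.13 at mid-day and midnight only. ADAMTSL1 at dusk against mid-day was -0.0010 to 0.72 with a library left out.

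With group means taken out, same-numbered libraries correlated at -0.134 to 0.147 within the pineal gland, -0.721 to 0.658 within the retina and -0.0521 to 0.0978 between tissues. In that order their medians were 0.052, 0.0098 and 0.027, and those of differently numbered libraries -0.023, 0.0063 and -0.0058. Whether a number marks a shared animal cannot be told from these values. With a replicate block 0 members passed the difference between tissues over time (limma adjusted p = 0.220 for ADAMTSL1, 0.187 for FURIN), and ADAMTSL1 at dusk against dawn passed (1.67, limma adjusted p = 0.0400).

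Over all genes the pineal F test called 20, with 6 under the XIST covariate and 43 under the block, and 4 to 378 with a library left out. Dusk against dawn called 112, with 34 under no filter, 31 under the XIST covariate, 204 under the block and 44 under no trend, and 0 to 397 with a library left out. The difference between tissues over time called 77, with 41 under no filter, 13 under limma voom, 33 under the XIST covariate, 4 under the block, 39 under no trend and 39 without both retina libraries, and 12 to 312 with a library left out. The retina F test called 0, with 9 under no filter, 2 under the block, 1 under no trend and 1 without both retina libraries. The XIST and block fits leave out the pools. At 2 to 14 reads in 9 pineal libraries, differences of ADAMTS16 among dawn, dusk and midnight are not detectable at this depth.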

Other observations

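ADAMTS3, an enzyme that trims procollagen and is not among the 8 genes, had an uneven level among retina libraries that the times do not follow. It was at 4.73 FPKM in dawn 2, 3.02 in mid-day 1, 4.31 in mid-day 3 and 4.61 in dusk 2, and at 0.0496 to 0.214 FPKM in the other 8 retina libraries. The pineal libraries held 0.244 to 0.930 FPKM and the pools 3.18 and 3.65. The first 2 of the high libraries are those with more genes at 0, and the other 2 are not. ADAMTS3 was chosen after its values were seen.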
